A study of Mus musculus with 16 samples.

Results

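The 37 genes described here are antiviral interferon-stimulated genes, the effector, sensor and transcription factor genes that cells switch on when interferon binds its receptors. They were chosen by symbol, from a list of OAS, IFIT, Mx, RNA sensor and interferon regulatory factor genes; the rule uses no measured value, but the list was drawn up with earlier results of these data known. Of the 37, 36 had a row in the table of 41411 genes, and 35 passed the filter on low values (5 or more in 4 or more libraries) and were tested among 16748 genes. Mx2 had no row and was not analysed here. Irf8 had a row and was listed at 0 in all 16 libraries. Of the 35 tested members, 34 would have passed the filter on the vehicle libraries alone. The exception, Oas1g, passed through the OXA libraries, so its difference between OXA and vehicle was partly set by the filter.

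Interferons are secreted proteins that act through receptors coupled to the JAK kinases. Type I and type III interferons lead STAT2 to join IRF9 in a complex that binds the interferon-stimulated response element (ISRE), whereas interferon gamma acts through the gamma-activated site (GAS). The genes so induced degrade viral RNA, block its translation, hold budding virions at the cell surface or sense foreign nucleic acid, and in squamous epithelia both the lining cells and leukocytes can express them.

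RNA came from the esophagus of C57BL/6 mice, extracted with TRIZOL, and was sequenced as CEL-Seq libraries, which read short tags near the 3′ end of transcripts. Mice were wild type (WT) or Il13ra1 knockout (KO), which lack a receptor chain for IL-13, and received OXA (oxazolone, a skin-sensitising hapten, used here for an experimental eosinophilic esophagitis) or vehicle alone. Each of the 4 groups (WT vehicle, WT OXA, KO vehicle and KO OXA) held 4 libraries. The labels give no age, sex, batch or dose, and nothing in them states that the 4 libraries of a group are 4 animals, so the p-values measure the spread between libraries, which may be technical.

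Values are those deposited, gene counts scaled by a single size factor for each library, and 4 values in a row follow the order of libraries 1 to 4 of a group. Depth, as reads recovered from the values, moved with the groups: 7.64 ± 1.70 M reads under vehicle and 23.3 ± 3.63 M reads under OXA in WT, and 12.9 ± 3.64 M and 11.6 ± 2.71 M reads in KO (SD, n = 4). The share of mitochondrial rRNA moved as well, from 0.453% in WT OXA to 1.34% in WT vehicle (group means), and its part in the results was not tested. That of depth was examined only by thinning reads to 5.61 M, with the members' calls so lost given at the end. Il13ra1 averaged 191 ± 39.8 under vehicle and 721 ± 123 under OXA in WT, against 50.1 ± 14.2 and 99.1 ± 56.9 in KO, with no overlap of the genotypes under either treatment. CEL-Seq reads need not come from the deleted exons, so this checks the labels only in part. The 7 squamous epithelial markers (Krt5, Krt14, Krt4, Krt13, Trp63, Krt78 and Krtdap) summed to 1273370.0 to 1880620.0 under vehicle and 442727 to 731961 under OXA in WT, without overlap, and to 1347940.0 to 1666320.0 with vehicle and 1281640.0 to 2780090.0 with OXA in KO, with overlap. In WT, Krt13, Krt78 and Krtdap, keratinocyte genes of the upper layers, fell and Krt14, a basal keratin, rose. In KO none of the 7 passed by limma, where 1.81% of all genes rose and 0.0896% fell. The part of this shift in the members' changes was not tested. In bulk tissue, fewer cells of a type and less RNA per cell cannot be told apart.

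Sequences of 5 promoters are shown because each holds letters that match the ISRE, the GAS or both, and because the genes they belong to recur in the results. RefSeq promoter windows (GRCm38.p6, 250 bases before to 50 bases after each transcript start) were matched by symbol for 27 of the 37 members, with 34 windows between them. The ISRE was searched on both strands as GAAA, any 2 bases and GAAA again, and the GAS as TTCNNNGAA, which is its own reverse complement. Each line gives the 160 bases before the start, 5′ to 3′ on the gene's strand, with ISRE and GAS letters in capitals. The stretches lie at chr4:156200819-156200978, minus strand for Isg15, chr19:34640729-34640888, plus strand for Ifit1, chr5:120907526-120907685, minus strand for Oas1a, chr8:71537473-71537632, minus strand for Bst2 and chr11:53769854-53770013, plus strand for Irf1.
Isg15: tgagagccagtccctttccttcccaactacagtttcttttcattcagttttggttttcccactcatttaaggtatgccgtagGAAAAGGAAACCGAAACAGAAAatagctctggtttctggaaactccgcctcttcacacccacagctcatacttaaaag
Ifit1: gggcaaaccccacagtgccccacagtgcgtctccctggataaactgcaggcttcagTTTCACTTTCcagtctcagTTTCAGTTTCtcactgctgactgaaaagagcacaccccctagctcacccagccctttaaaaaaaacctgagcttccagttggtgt
Oas1a: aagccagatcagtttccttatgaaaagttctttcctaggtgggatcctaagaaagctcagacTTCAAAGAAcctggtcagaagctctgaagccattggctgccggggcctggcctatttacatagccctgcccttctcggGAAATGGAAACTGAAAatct
Bst2: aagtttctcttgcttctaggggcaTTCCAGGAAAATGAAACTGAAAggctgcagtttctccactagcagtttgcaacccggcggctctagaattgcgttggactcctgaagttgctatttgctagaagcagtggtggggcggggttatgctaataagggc
Irf1: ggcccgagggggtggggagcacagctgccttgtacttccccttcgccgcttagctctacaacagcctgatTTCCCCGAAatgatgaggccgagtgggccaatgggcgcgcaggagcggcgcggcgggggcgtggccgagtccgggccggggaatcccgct
Isg15 held 3 overlapping ISRE matches in 1 run of capitals, Ifit1 held 2 separate matches on the opposite strand, and Irf1 held a GAS and no ISRE. Oas1a and Bst2 each held 2 overlapping ISRE matches and a GAS, which in Bst2 overlaps the ISRE run. An ISRE was in the windows of 13 of the 27 matched members (48.1%), against 3.99% of the 27025 genes in the table. A GAS was in 8 of 27 (29.6%), against 9.55%. By window rather than by gene the shares were 41.2% of 34 against 3.44% of 32851 for the ISRE, and 23.5% against 8.30% for the GAS. A match describes the letters and says nothing of binding, and a window without a match says only that the letters are not in it.

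The first comparison asked what OXA does to these genes in WT esophagus. Of the 35 members tested, 31 rose and 0 fell, where 18.0% of all genes rose and 16% fell (limma on log2(value + 1), two-sided, Benjamini-Hochberg over 16748 genes, threshold 0.05, as throughout). For the 0 that fell, 0 members had an unadjusted p under 0.05 in that direction, and edgeR and DESeq2 on recovered reads also called 0 lower. The median log2 fold change of the members was 1.79, and that of all genes 0.10. In 21 members every WT OXA library lay above every WT vehicle library, a separation seen in 18.5% of all genes. Changes of single genes are given as log2 fold changes ± SE, and means ± SD, with 4 libraries a group.

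The same comparison in KO esophagus asked whether the genes respond without the IL-13 receptor chain. Of the 35 members, 30 rose and 0 fell, where 1.81% of all genes rose and 0.0896% fell. Again 0 members had an unadjusted p under 0.05 in the lower direction, and edgeR and DESeq2 called 0 lower. The members' median log2 fold change was 2.25 against -0.01 for all genes, and 29 members showed no overlap, against 3.93% of all genes. The members made up 9.90% of the genes that rose in KO and 1.03% of those that rose in WT. The WT and KO fold changes share no library. Their p-values are not independent, because both use a spread per gene taken over all 16 libraries.

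**Figure D1:**
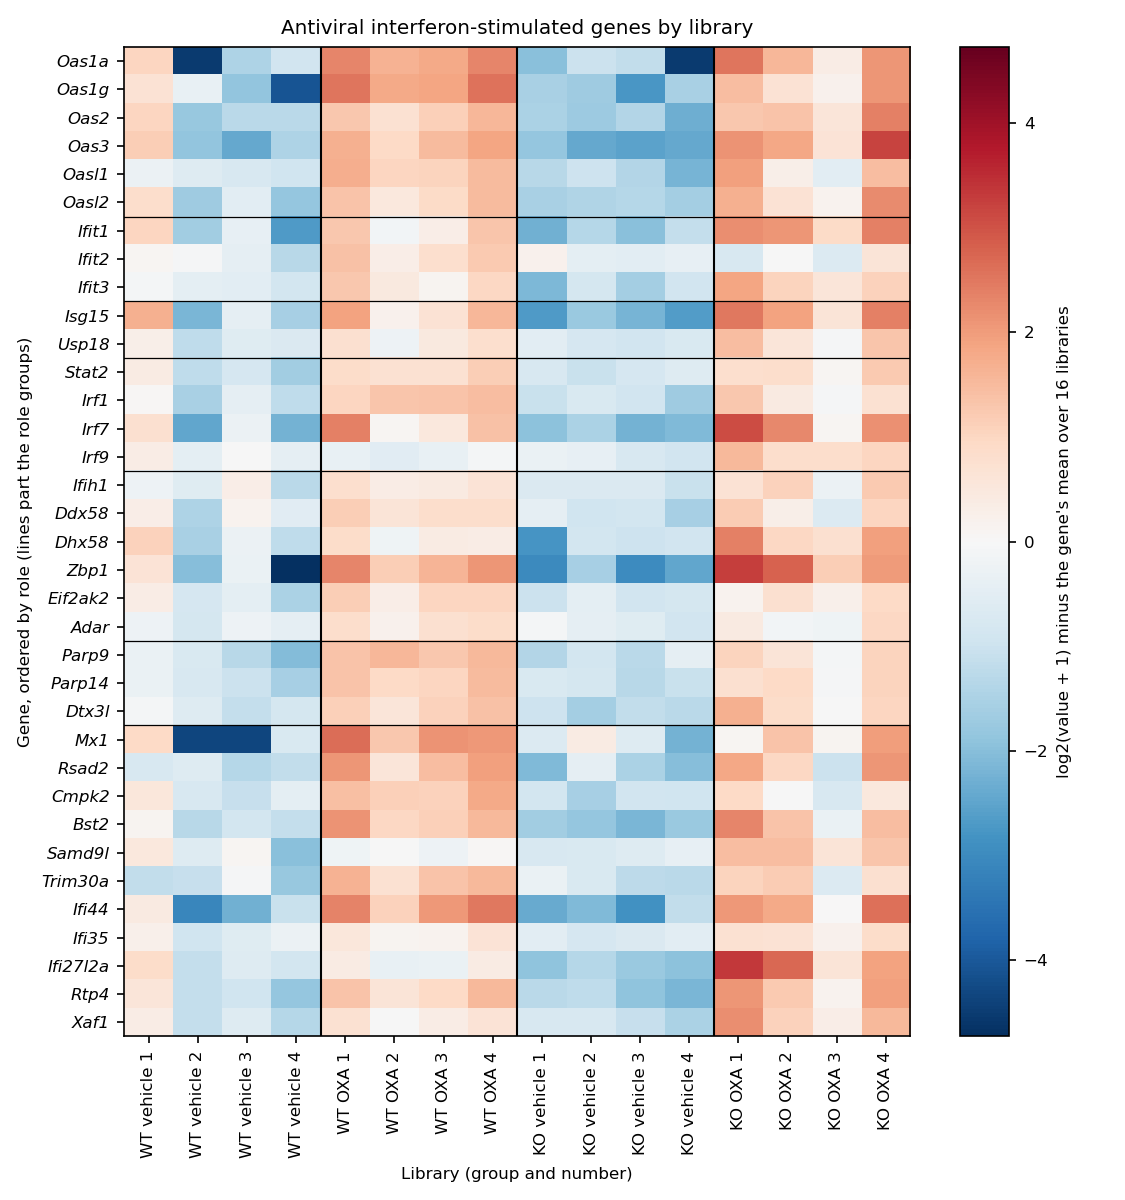
Level of each of the 35 tested genes (rows, ordered by role) in each of the 16 libraries (columns, by group), as log2(value + 1) minus the gene's mean over the 16 libraries. Most rows turn from blue in the vehicle columns to red in the OXA columns of both genotypes, with WT vehicle 1 redder than its group and KO OXA 3 paler than its group.

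As a sum over the 36 genes with a row, the members took 817, 295, 435 and 291 RPM (reads in 1 M) in WT vehicle libraries 1 to 4 and 1795, 1041, 1308 and 1604 in WT OXA. They took 310.4, 324, 275 and 262 in KO vehicle and 1775, 1567, 659 and 1952 in KO OXA. Within the vehicle groups WT vehicle 1 stood far above its group, and within the OXA groups KO OXA 3 stood far below its own. In each genotype the 4 OXA libraries lay above the 4 vehicle libraries, although KO OXA 3 lay below WT vehicle 1.

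WT vehicle 1 was the highest of its 4 libraries in 31 of the 35 members, where it was the highest in 21.3% of all genes. Its value over the mean of the other 3 had a median of 2.30-fold over the members (0.780 to 8.24), and 0.988-fold over all genes. It reached the level of the lowest WT OXA library in 14 members and stood above the highest WT OXA library in 4. KO OXA 3 was the lowest of its group in 32 of the 35 members (20.6% of all genes). The mean of the other 3 exceeded it by a median of 2.45-fold over the members and 1.05-fold over all genes, and it still lay above the highest KO vehicle library in 29 members. WT OXA 2 was the lowest of WT OXA in 30 members (24.0% of all genes). WT vehicle 1 and KO OXA 3 were therefore left out together as an alternative chosen after the data were seen: 33 members then rose in WT and 32 in KO, with medians of 2.26 and 2.64. The 2 libraries were chosen by the members' own values, so larger OXA effects in most members follow from the choice. The same holds below where 1 or both of them are left out.

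**Figure D2:**
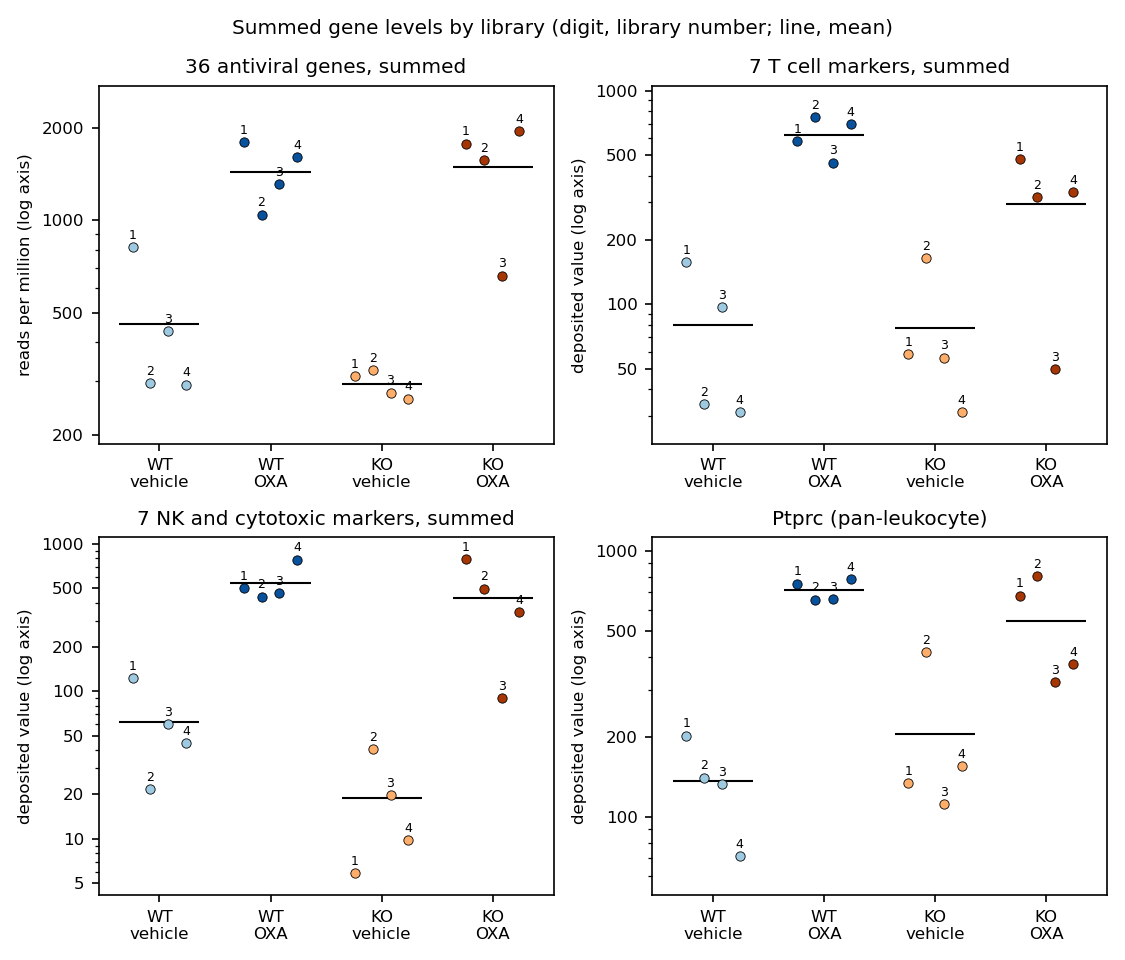
Each point is 1 library, with its number, and each line a group mean: summed RPM for the 36 antiviral genes with a row, summed values of 7 T cell markers and of 7 NK and cytotoxic markers, and the value of Ptprc, all on log axes. WT vehicle 1 is the highest of its group in all 4 panels, and KO OXA 3 the lowest of its group in all 4.

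Between vehicle and OXA, markers of T cells, of NK and cytotoxic cells and of leukocytes in general rose in group mean, as most members did. Those of other leukocytes did so in part or not at all, and the match did not hold in every library. The 7 T cell markers (Cd3e, Cd3g, Cd3d, Cd4, Cd8a, Trac and Lck) summed to 157, 34.0, 96.7 and 31.2 under vehicle and 579, 751, 459 and 698 under OXA in WT, and in KO to 58.5, 165, 56.3 and 31.2 with vehicle and 479, 318, 49.5 and 335 with OXA. All 7 rose in WT, with a median log2 fold change of 3.72, and in KO their median was 1.67 and none passed by limma. The 7 NK and cytotoxic cell markers (Ncr1, Klrb1c, Klrd1, Gzma, Gzmb, Prf1 and Nkg7) summed to 123, 21.6, 60.2 and 44.6 under vehicle and 499, 439, 462 and 779.8 under OXA in WT, and in KO to 5.83, 40.6, 19.8 and 9.85 with vehicle and 788, 497, 90.3 and 343 with OXA. Of the 6 tested, 5 rose in WT and 4 in KO. Of all genes, 18.0% rose in WT and 1.81% in KO.

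Ptprc encodes CD45, which all leukocytes carry. Ptprc stood at 202, 141, 133 and 71.3 (vehicle) and 754, 657, 662 and 786 (OXA) in WT, and at 135, 418, 112 and 156 (vehicle) and 680.3, 805, 322 and 376 (OXA) in KO. Ptprc rose by 2.46 ± 0.36 (adjusted p = 3.94e-05) in WT and by 1.51 ± 0.36 (adjusted p = 0.0324) in KO. Of 9 tested macrophage and dendritic cell markers 7 rose in WT and 3 in KO, and their sum ranged 2671 to 3480.0 under vehicle and 3347 to 4134 under OXA in WT, and 1766 to 2805 and 3322 to 7774 in KO, with Itgam listed at 0 in every library. KO OXA 3 was the third highest of its group.

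Plasmacytoid dendritic cells are the leukocytes best known for making type I interferon. Their 4 markers (Siglech, Ccr9, Cox6a2 and Pacsin1) summed to 5296 to 8299 under vehicle and 2833 to 3658 under OXA in WT, without overlap, and to 5666 to 7496 with vehicle and 3683 to 9214 with OXA in KO, with overlap. Nearly all of that sum was Cox6a2, which is also a gene of muscle and fell in WT by 0.92 ± 0.22 (adjusted p = 0.00298). Siglech averaged 12.5 ± 7.22 under vehicle and 13.4 ± 6.46 under OXA in WT and 16.1 ± 3.33 and 9.71 ± 4.92 in KO, and it, Ccr9 and Pacsin1 did not pass in either genotype.

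The 7 neutrophil markers (Ly6g, Csf3r, Cxcr2, Mpo, Elane, Camp and Ngp) summed to 138 to 238 under vehicle and 144 to 199 under OXA in WT, and to 182 to 318 with vehicle and 187 to 269.8 with OXA in KO, overlapping in both, with Elane listed at 0 in every library. The 4 B and plasma cell markers used here (Ms4a1, Cd79a, Jchain and Mzb1) summed to 23.4, 80.4, 52.9 and 55.7 under vehicle and 1264, 787, 1467 and 883 under OXA in WT, and in KO to 35.1, 1262, 92.1 and 73.9 with vehicle and 77.0, 2019, 97.8 and 48.9 with OXA, so that library 2 of each KO group stood far above the other 3. The 4 endothelial markers (Pecam1, Cdh5, Kdr and Vwf) all rose in WT, where their sum ranged 552 to 651 with vehicle and 913 to 1632 with OXA. That sum ranged 412 to 612 with vehicle and 197 to 489.6 with OXA in KO.

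WT vehicle 1 had the highest T cell, NK and Ptprc levels of its group, as with the members, but the lowest B and plasma cell sum and the third highest macrophage and dendritic cell sum. KO OXA 3 had the lowest T cell, NK and Ptprc levels of its group, but the highest neutrophil sum. Its T cell sum (49.5) lay within the KO vehicle range, although 29 members there lay above that range. WT OXA 2, the lowest of its group in 30 members, had the lowest NK sum and Ptprc level of its group but the highest T cell sum (751). KO vehicle 2 had the highest T cell (165) and Ptprc (418) levels of its group, with the members at 324 RPM against 262 to 310.4 in the others. The part of these cells in the members' changes was not tested.

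**Figure D3:**
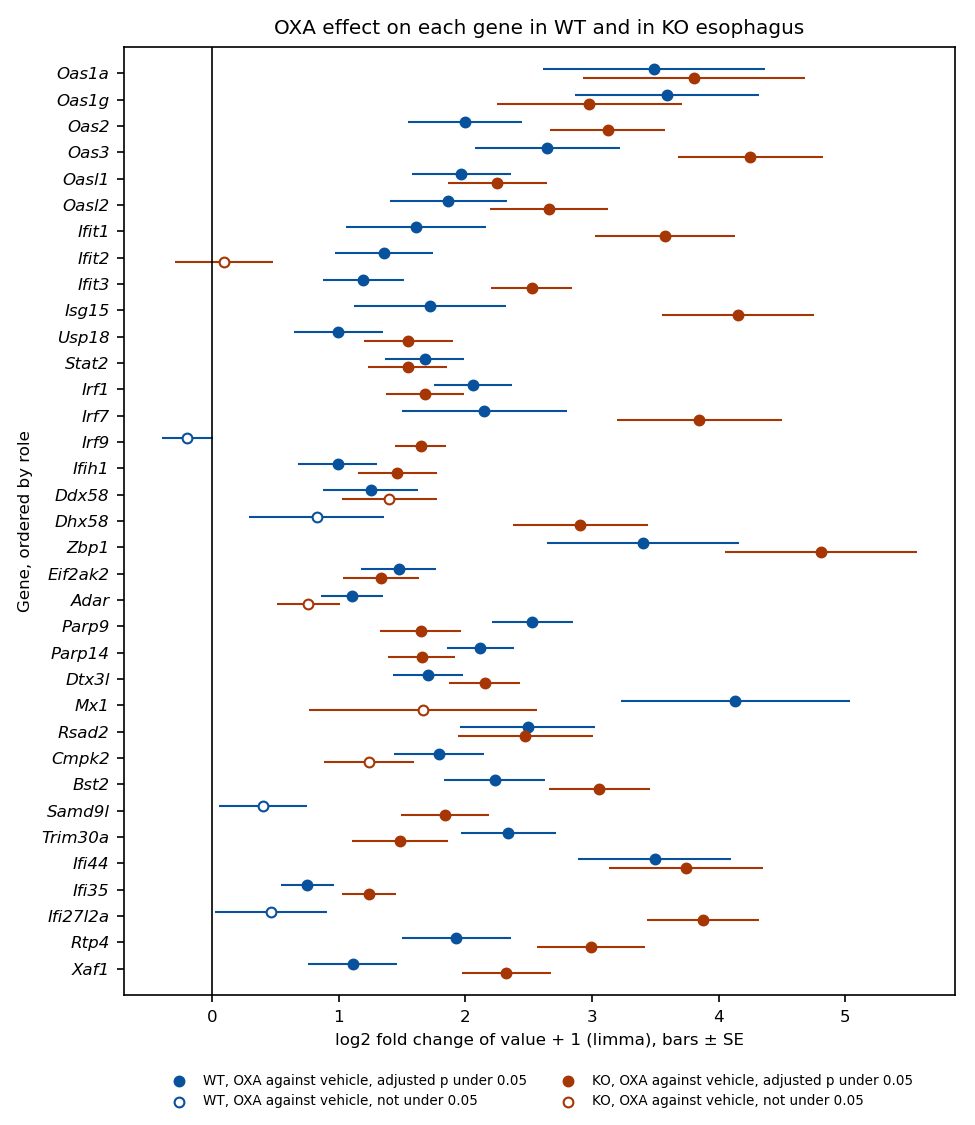
log2 fold change of value + 1 between OXA and vehicle for each of the 35 tested genes (rows, ordered by role), in WT (blue) and in KO (brown), with bars of ± 1 SE. Filled points passed an adjusted p of 0.05. All KO points lie at or above 0.09 (Ifit2), and Irf9 is the WT point below 0.

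Transcription factors are the entry point of the response. STAT2 and IRF9 belong to the ISRE-binding complex, IRF7 amplifies type I interferon production, and IRF1 is a GAS-driven factor of the interferon gamma response. In WT, Stat2 read 281, 94.3, 124 and 69.1 with vehicle and 392, 356, 357 and 489.8 with OXA, and in KO it read 127, 104, 125 and 139.5 with vehicle and 374, 388, 229 and 507 with OXA. Under vehicle Irf1 was measured at 347, 116, 248 and 143 in WT and 159, 200.2, 177 and 103 in KO, and under OXA at 666, 836, 847 and 919 in WT and 816, 443, 317 and 545 in KO. For both genes the OXA libraries of each genotype lay above its vehicle libraries without overlap. Stat2 rose by 1.68 ± 0.31 (adjusted p = 0.000403) in WT and 1.54 ± 0.31 (adjusted p = 0.00912) in KO, and Irf1 by 2.06 ± 0.31 (adjusted p = 4.7e-05) and 1.68 ± 0.31 (adjusted p = 0.00353). The KO effect minus the WT effect was -0.13 ± 0.44 for Stat2 and -0.38 ± 0.44 for Irf1, neither of which passed (adjusted p = 0.872 and 0.595).

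Irf7 stood at 239.6, 24.7, 117 and 29.0 (vehicle) and 743, 151, 202 and 367 (OXA) in WT, and at 36.1, 49.2, 28.9 and 32.8 (vehicle) and 1206, 692, 149.8 and 641 (OXA) in KO. In WT, WT vehicle 1 was higher than WT OXA 2 and 3, so the groups overlapped, whereas in KO all 4 OXA libraries were clear of vehicle. Irf7 rose by 2.15 ± 0.65 (adjusted p = 0.015) in WT and by 3.85 ± 0.65 (adjusted p = 0.00155) in KO. The WT call was lost without WT vehicle 2 or 4 or WT OXA 1 (adjusted p from 0.056 to 0.0602) and under 1 of the settings that keep every library (adjusted p = 0.0576). It grew without WT vehicle 1 (log2 fold change 2.75), and the KO value grew without KO OXA 3 (log2 fold change 4.46).

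In WT, Irf9 read 1052, 589, 803 and 608 with vehicle and 645, 560.4, 637 and 760.4 with OXA, and in KO it read 653, 632, 485 and 435 with vehicle and 2384, 1472, 1438 and 1668 with OXA. The WT OXA libraries overlapped WT vehicle, whereas the 4 KO OXA libraries exceeded the other 12 libraries. Irf9 (chr14:55603571-55610030, GRCm38, plus strand) stood at a log2 fold change of -0.20 ± 0.20 (adjusted p = 0.483) in WT and rose by 1.65 ± 0.20 (adjusted p = 5.97e-05) in KO, and the effects differed by 1.84 ± 0.28 (adjusted p = 0.000207). Irf9 shared 2.28% of its exonic bases with Rnf31 on the same strand, and neither RefSeq window of Irf9 held an ISRE or a GAS match.

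Irf8, a factor of myeloid cells and of interferon gamma signalling, gives no usable value. It lies within the span of Gm20388 (chr8:119910841-124345722, GRCm38), a very long gene model on the same strand, with which it shares 0 exonic bases in GENCODE M21. All 36 protein-coding genes on that strand inside the span were listed at 0, including Rpl13, Cox4i1 and Map1lc3b, which nearly every cell expresses, while 33 of 35 on the other strand had reads, such as Chmp1a with 13513 and Ankrd11 with 30849. Gm20388 itself had 12136 reads. The 0 of Irf8 is therefore given as a listing and not as a level.

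RNA and DNA sensors detect foreign or misplaced nucleic acid. Ifih1 (MDA5) and Ddx58 (RIG-I) bind viral RNA, Dhx58 (LGP2) modulates them, Zbp1 binds Z-form nucleic acid and can trigger cell death, Eif2ak2 (PKR) stops translation, and Adar edits adenosines in double-stranded RNA. Of these 6, 5 rose in WT and 4 in KO. Under vehicle Zbp1 was measured at 132, 20.1, 67.5 and 2.23 in WT and 9.75, 27.6, 9.89 and 14.8 in KO, and under OXA at 425, 188, 259 and 367 in WT and 831, 583, 192 and 345 in KO. In both genotypes the OXA libraries were clear of vehicle. Zbp1 had the largest fold change of the members in KO, 4.81 ± 0.76 (adjusted p = 0.000784), and rose by 3.40 ± 0.76 (adjusted p = 0.00185) in WT, a value that moved without WT vehicle 1 or 4 (log2 fold change from 2.36 to 4.15).

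Ifih1 stood at 125, 100.4, 182 and 60.2 (vehicle) and 258, 188, 198 and 230.1 (OXA) in WT, and at 91.6, 93.2, 91.3 and 70.6 (vehicle) and 240.2, 316, 123 and 351 (OXA) in KO. In WT, Ddx58 read 289, 85.0, 259 and 158 with vehicle and 527, 356, 419 and 419 with OXA, and in KO it read 174, 122, 128 and 77.1 with vehicle and 534, 279, 149 and 469.6 with OXA. Ifih1 had no overlap in either genotype, while in Ddx58 KO OXA 3 lay below KO vehicle 1. Ifih1 rose by 0.99 ± 0.31 (adjusted p = 0.0187) in WT and 1.46 ± 0.31 (adjusted p = 0.0138) in KO, and Ddx58 by 1.25 ± 0.38 (adjusted p = 0.0146) in WT. The KO change of Ddx58, 1.40 ± 0.38 (adjusted p = 0.0628), did not pass, and its difference from the WT change was 0.15 ± 0.53 (adjusted p = 0.883). Without KO OXA 3 the KO change of Ddx58 passed (1.77 ± 0.35, adjusted p = 0.00731). The calls for Ifih1 were lost without WT vehicle 4 or WT OXA 1 (adjusted p from 0.0531 to 0.0749) in WT and without KO vehicle 4 or KO OXA 2 (adjusted p from 0.0528 to 0.0708) in KO, and that for Ddx58 without WT vehicle 2 (adjusted p = 0.0569). The KO call for Ifih1 was also lost with library totals set equal (adjusted p = 0.0532).

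Under vehicle Eif2ak2 was measured at 339, 153, 195 and 93.6 in WT and 129.6, 195, 142 and 149 in KO, and under OXA at 593, 328, 538 and 545 in WT and 303, 454, 313 and 513 in KO. Adar stood at 184, 122, 188 and 163 (vehicle) and 390.5, 255, 371 and 404 (OXA) in WT, and at 204, 163, 148 and 118 (vehicle) and 292, 200.03, 192 and 429 (OXA) in KO. WT vehicle 1 reached above WT OXA 2 for Eif2ak2, and KO OXA 2 and 3 fell below KO vehicle 1 for Adar. Eif2ak2 rose by 1.47 ± 0.30 (adjusted p = 0.000795) in WT and 1.33 ± 0.30 (adjusted p = 0.0188) in KO, where the call was lost without KO vehicle 1, 3 or 4 or KO OXA 2 (adjusted p from 0.0529 to 0.0802). The KO call was also lost under 2 of the settings that keep every library (adjusted p from 0.0686 to 0.0701). Adar rose by 1.104 ± 0.25 (adjusted p = 0.00193) in WT and stood at 0.76 ± 0.25 (adjusted p = 0.147) in KO, and 16.8% of its exonic bases are shared with Chrnb2 on the opposite strand. Dhx58 ranged 15.4 to 101 under vehicle and 40.5 to 86.0 under OXA in WT, and 5.85 to 25.0 and 80.5 to 248 in KO. It rose in KO by 2.91 ± 0.53 (adjusted p = 0.00353) and stood at 0.83 ± 0.53 (adjusted p = 0.248) in WT, but the difference between them, 2.08 ± 0.75 (adjusted p = 0.062), did not pass. The highest WT vehicle value, 101, was that of WT vehicle 1. Without that library the WT change passed (1.35 ± 0.50, adjusted p = 0.0454).

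ISG15 is a ubiquitin-like protein that is joined to other proteins after interferon, and USP18 removes it and also damps signalling at the type I interferon receptor. In WT, Isg15 read 917, 61.8, 208 and 93.6 with vehicle and 1058, 323, 459.8 and 848 with OXA, and in KO it read 43.9, 83.7, 61.6 and 44.3 with vehicle and 1601, 1057, 428 and 1484 with OXA. WT vehicle 1 lay above 3 of the 4 WT OXA libraries, and in KO the groups were far apart. Isg15 rose by 1.72 ± 0.60 (adjusted p = 0.0322) in WT and by 4.15 ± 0.60 (adjusted p = 0.000299) in KO. The WT call was lost without WT vehicle 2, 3 or 4 or WT OXA 1 or 4 (adjusted p from 0.0516 to 0.118) and under 7 of the settings that keep every library (adjusted p from 0.0617 to 0.249), and without WT vehicle 1 the fold change was 2.49 ± 0.47, adjusted p = 0.000553.

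Under vehicle Usp18 was measured at 86.7, 30.9, 47.4 and 44.6 in WT and 50.7, 40.6, 38.0 and 42.7 in KO, and under OXA at 123, 61.1, 99.3 and 125 in WT and 199.9, 106, 68.1 and 180.4 in KO. The OXA libraries were clear of vehicle in KO, and in WT the lowest OXA library lay below WT vehicle 1. Usp18 rose by 0.99 ± 0.35 (adjusted p = 0.0351) in WT and by 1.55 ± 0.35 (adjusted p = 0.0218) in KO. The WT call was lost without WT vehicle 2, 3 or 4 or WT OXA 1, 3 or 4 (adjusted p from 0.0651 to 0.103) and the KO call without KO vehicle 2, 3 or 4 or KO OXA 1 (adjusted p from 0.0546 to 0.114). Each was also lost under 4 of the settings that keep every library (adjusted p from 0.0522 to 0.0816 in WT and from 0.0509 to 0.0964 in KO).

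OAS enzymes make oligoadenylates on double-stranded RNA, which switch on the nuclease RNase L. Not all of the related OASL proteins have this activity. All 6 rose in both genotypes. The genes form 2 clusters on chromosome 5: Oasl2 and Oasl1 lie 11.01 kb apart, Oas2 and Oas3 3.245 kb apart, and Oas1g and Oas1a 8.643 kb apart. The promoter windows of Oas1a and Oas1g shared an identical stretch of 73 bases. The transcripts of these close copies were not compared, so whether reads of either gene were assigned to the other was not tested. Oas1a stood at 45.4, 0, 7.30 and 11.1 (vehicle) and 112, 71.3, 78.5 and 113 (OXA) in WT, and at 4.87, 10.4, 9.13 and 0 (vehicle) and 130.2, 66.7, 28.5 and 96.9 (OXA) in KO. It rose by 3.49 ± 0.88 (adjusted p = 0.00449) in WT and by 3.80 ± 0.88 (adjusted p = 0.0242) in KO without overlap. The WT value moved without WT vehicle 1 or 2 (log2 fold change from 2.47 to 4.32), and the KO call was lost without KO vehicle 1 or 4 or KO OXA 1 or 2 (adjusted p from 0.0642 to 0.115), where its value moved without KO vehicle 4 (log2 fold change 3.02). The KO call for Oas1a was also lost with no filter and with no trend (adjusted p from 0.0772 to 0.0825). Oas1g ranged 0 to 26.2 with vehicle and 57.5 to 99.4 with OXA in WT, and 1.52 to 4.92 with vehicle and 18.6 to 70.9 with OXA in KO. It rose by 3.59 ± 0.73 (adjusted p = 0.00083) in WT, a value that moved without WT vehicle 1 or 4 (log2 fold change from 2.70 to 4.29), and by 2.98 ± 0.73 (adjusted p = 0.0361) in KO, a call lost without WT OXA 1, 2, 3 or 4, KO vehicle 1, 2, 3 or 4 or KO OXA 1, 2 or 4 (adjusted p from 0.0504 to 0.138). The KO call for Oas1g was also lost under 5 of the settings that keep every library (adjusted p from 0.0581 to 0.109).

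In WT, Oas2 read 337, 47.9, 69.3 and 69.1 with vehicle and 407, 277, 366 and 498 with OXA, and in KO it read 59.5, 50.9, 63.9 and 32.8 with vehicle and 407, 429, 254 and 892 with OXA. Under vehicle Oas3 was measured at 212, 24.7, 16.4 and 33.4 in WT and 25.3, 16.4, 15.2 and 16.4 in KO, and under OXA at 301, 180.1, 266 and 345 in WT and 407, 329.8, 146 and 857 in KO. In WT vehicle the first library was the outlier of the group for both genes and exceeded the lowest WT OXA library, whereas the KO groups did not overlap. Oas2 rose by 1.997 ± 0.45 (adjusted p = 0.00209) in WT and 3.12 ± 0.45 (adjusted p = 0.000318) in KO, and Oas3 by 2.65 ± 0.58 (adjusted p = 0.00149) and 4.25 ± 0.58 (adjusted p = 0.000165). The WT values grew to 2.61 ± 0.34 for Oas2 and 3.42 ± 0.43 for Oas3 without WT vehicle 1.

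Oasl1 stood at 116, 91.2, 82.1 and 71.3 (vehicle) and 462, 285, 286 and 397 (OXA) in WT, and at 55.6, 70.8, 52.5 and 29.5 (vehicle) and 534, 168, 97.8 and 381 (OXA) in KO. In WT, Oasl2 read 654, 113, 261 and 103 with vehicle and 946, 524, 689 and 1037 with OXA, and in KO it read 128, 136, 145 and 121 with vehicle and 1183, 586, 416 and 1741 with OXA. Oasl1 had no overlap in either genotype, and Oasl2 overlapped in WT through WT vehicle 1. Oasl1 rose by 1.97 ± 0.39 (adjusted p = 0.00071) in WT and by 2.25 ± 0.39 (adjusted p = 0.00215) in KO. Oasl2 rose by 1.87 ± 0.46 (adjusted p = 0.00418) in WT and by 2.66 ± 0.46 (adjusted p = 0.00215) in KO.

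IFIT proteins bind viral RNA that lacks host cap marks and block its translation. The 3 members sit in 1 cluster on chromosome 19, with Ifit2 and Ifit3 7.112 kb apart and Ifit1 a further 52.14 kb on. Under vehicle Ifit1 was measured at 672, 107, 254 and 51.3 in WT and 67.2, 131, 84.5 and 151 in KO, and under OXA at 811, 299.7, 411 and 834 in WT and 1538, 1416, 621 and 1741 in KO. Ifit3 stood at 132, 102, 98.5 and 75.8 (vehicle) and 344, 193, 155 and 274 (OXA) in WT, and at 31.2, 77.7, 44.9 and 73.9 (vehicle) and 509.7, 291, 209 and 303 (OXA) in KO. WT vehicle 1 exceeded 2 WT OXA libraries for Ifit1, while the OXA libraries were clear of vehicle in both genotypes for Ifit3. Ifit1 rose by 1.61 ± 0.55 (adjusted p = 0.03) in WT, a call lost without WT vehicle 2 or 4 or WT OXA 1 or 4 (adjusted p from 0.0826 to 0.128) and under 7 of the settings that keep every library (adjusted p from 0.052 to 0.162), and without WT vehicle 1 it was 2.26 ± 0.47, adjusted p = 0.00136. In KO Ifit1 rose by 3.58 ± 0.55 (adjusted p = 0.000653). Ifit3 rose by 1.19 ± 0.32 (adjusted p = 0.00694) in WT and 2.52 ± 0.32 (adjusted p = 8.34e-05) in KO. Ifit3 has a near copy, Ifit3b, that could take some of its reads.

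In WT, Ifit2 read 37.2, 34.0, 25.5 and 13.4 with vehicle and 91.8, 43.6, 61.2 and 84.8 with OXA, and in KO it read 40.0, 25.0, 24.4 and 26.3 with vehicle and 20.2, 34.5, 22.3 and 53.6 with OXA. In Ifit2, WT OXA lay above WT vehicle without overlap, a rise of 1.36 ± 0.39 (adjusted p = 0.0106), while KO OXA overlapped KO vehicle, with 0.09 ± 0.39 (adjusted p = 0.942). The difference between these effects was -1.27 ± 0.55 (adjusted p = 0.118) and did not pass.

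PARP9 and DTX3L form an ADP-ribosylating and ubiquitin ligase complex, and PARP14 is another ADP-ribosyltransferase. Under vehicle Parp9 was measured at 159.7, 121, 78.5 and 46.8 in WT and 75.0, 109, 81.4 and 146 in KO, and under OXA at 502, 586, 477 and 581 in WT and 414, 300.1, 186 and 417 in KO. Parp14 stood at 156, 113, 93.0 and 64.6 (vehicle) and 490.3, 372, 388 and 547 (OXA) in WT, and at 117, 107, 76.1 and 91.9 (vehicle) and 328, 364, 186 and 398 (OXA) in KO. In WT, Dtx3l read 414, 291, 204 and 249.6 with vehicle and 972, 666, 935 and 1162 with OXA, and in KO it read 224, 144, 196 and 182 with vehicle and 1419, 819, 443 and 888 with OXA. In all 3 genes the OXA libraries lay above the vehicle libraries without overlap in both genotypes, and WT vehicle 1 did not reach the WT OXA range. Parp14 had the smallest p of the members in WT, 2.12 ± 0.26 (adjusted p = 6.4e-06), followed by Parp9 with 2.53 ± 0.32 (adjusted p = 7.32e-06), while Dtx3l rose by 1.71 ± 0.28 (adjusted p = 0.000109). In KO they rose by 1.65 ± 0.26, 1.65 ± 0.32 and 2.15 ± 0.28 (adjusted p = 0.000885, 0.00594 and 9.79e-05). Parp9 and Dtx3l lie head to head on opposite strands of chromosome 16 and share 458 exonic bases at their 5′ ends. No strand setting is stated, but inside the Gm20388 span 36 of 36 protein-coding genes on its strand were listed at 0. On the other strand 33 of 35 had reads. The part of the shared bases in the counts of Parp9 and Dtx3l was not tested.

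Mx1, Rsad2, Cmpk2 and Bst2 are grouped here as antiviral effectors. MX1 is a GTPase that traps viral nucleocapsids, and C57BL/6 mice are known to carry a disrupted Mx1 allele, so its RNA is followed here as an interferon-induced transcript. Under vehicle Mx1 was measured at 37.2, 0, 0 and 11.1 in WT and 11.7, 25.0, 12.2 and 3.28 in KO, and under OXA at 124, 47.7, 86.3 and 81.5 in WT and 20.2, 50.0, 21.0 and 78.0 in KO. Mx1 rose by 4.13 ± 0.90 (adjusted p = 0.00154) in WT without overlap, against a vehicle group with 2 libraries at 0, and the value moved without WT vehicle 1, 2 or 3 (log2 fold change from 3.40 to 5.15). In KO it overlapped and stood at 1.66 ± 0.90 (adjusted p = 0.426). The difference, -2.47 ± 1.27 (adjusted p = 0.192), did not pass.

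Rsad2 (viperin) makes a chain-terminating nucleotide from CTP, and Cmpk2 is a nucleotide kinase whose gene lies 12.75 kb away in the opposite orientation on chromosome 12. Rsad2 stood at 35.8, 40.2, 23.7 and 26.7 (vehicle) and 267, 93.4, 171 and 239 (OXA) in WT, and at 13.7, 45.7, 21.3 and 14.8 (vehicle) and 222, 124, 29.7 and 266 (OXA) in KO. In WT, Cmpk2 read 118, 47.9, 38.3 and 60.2 with vehicle and 221, 179.6, 174 and 286 with OXA, and in KO it read 44.8, 26.8, 43.4 and 42.7 with vehicle and 158, 82.2, 48.3 and 117 with OXA. KO OXA 3 lay inside the KO vehicle range for Rsad2 and just above it for Cmpk2. Rsad2 rose by 2.49 ± 0.53 (adjusted p = 0.00129) in WT and 2.47 ± 0.53 (adjusted p = 0.0147) in KO, where the call was lost without KO vehicle 1 or 4 or KO OXA 1 or 2 (adjusted p from 0.0515 to 0.0819) and the value grew without KO OXA 3 (log2 fold change 3.14). The KO call for Rsad2 was also lost under 3 of the settings that keep every library (adjusted p from 0.0538 to 0.0737). Cmpk2 rose by 1.79 ± 0.36 (adjusted p = 0.000732) in WT and stood at 1.24 ± 0.36 (adjusted p = 0.0918) in KO. Without KO OXA 3 its KO change passed (1.55 ± 0.35, adjusted p = 0.0189).

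Bst2 (tetherin) holds budding virions at the cell surface. Under vehicle Bst2 was measured at 441, 164, 224 and 185 in WT and 129, 112, 90.5 and 118 in KO, and under OXA at 1772, 797, 893 and 1168 in WT and 2022, 1026, 329 and 1124 in KO. The OXA libraries were clear of vehicle in both genotypes, with KO OXA 3 the lowest of the 8. Bst2 rose by 2.23 ± 0.40 (adjusted p = 0.000273) in WT and by 3.06 ± 0.40 (adjusted p = 0.000107) in KO.

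Trim30a is a mouse TRIM protein that restrains Toll-like receptor signalling. Trim30a stood at 79.9, 83.5, 173 and 51.3 (vehicle) and 563, 295, 465 and 524 (OXA) in WT, and at 143, 109.6, 76.1 and 73.9 (vehicle) and 378, 417, 115 and 306 (OXA) in KO. It rose by 2.34 ± 0.38 (adjusted p = 0.000103) in WT without overlap. In KO it rose by 1.48 ± 0.38 (adjusted p = 0.0473), with KO OXA 3 inside the vehicle range, a call lost without WT vehicle 1 or 2, WT OXA 1, 2, 3 or 4, KO vehicle 1, 2, 3 or 4 or KO OXA 1 or 2 (adjusted p from 0.0504 to 0.195) and under 6 of the settings that keep every library (adjusted p from 0.0563 to 0.135).

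The other 4 effectors rose in both genotypes. Ifi44 ranged 13.9 to 169 in WT vehicle and 268 to 713 in WT OXA, a rise of 3.49 ± 0.61 (4.13 ± 0.55 without WT vehicle 1), and 16.7 to 55.8 and 129 to 769 in KO, a rise of 3.74 ± 0.61. Rtp4 rose by 1.93 ± 0.43 and 2.99 ± 0.43, and Ifi35 by 0.75 ± 0.21 and 1.24 ± 0.21. Xaf1, which binds the apoptosis inhibitor XIAP, rose by 1.11 ± 0.35 in WT and 2.32 ± 0.35 in KO. The adjusted p-values ran from 0.000207 (Ifi44) to 0.02 (Xaf1) in WT and from 0.00029 (Rtp4) to 0.00184 (Ifi35) in KO, and the WT call for Xaf1 was lost without WT vehicle 2 or 4 or WT OXA 1 or 4 (adjusted p from 0.0543 to 0.0715).

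Whether the OXA effect differed between the genotypes was tested as an interaction, the KO effect minus the WT effect. It was larger in KO for 4 of the 35 members, Ifit3, Irf9, Samd9l and Ifi27l2a, and smaller for 0, where 10.1% of all genes passed as larger and 7.67% as smaller, so the share larger in KO was near that of all genes. For the 0 smaller, 1 member had an unadjusted p under 0.05 in that direction, and edgeR and DESeq2 called 0. The median difference over the members was 0.47 and over all genes -0.10. The fold change was larger in KO in 23 members (65.7%) and larger in WT in 12, while it was larger in KO in 45.4% of all genes. Of the 35 members, 26 rose in both genotypes, Ifit2, Ddx58, Adar, Mx1 and Cmpk2 passed in WT and not in KO, and Irf9, Dhx58, Samd9l and Ifi27l2a in KO and not in WT. Among these 9, the difference itself passed for Irf9, Samd9l and Ifi27l2a.

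**Figure D4:**
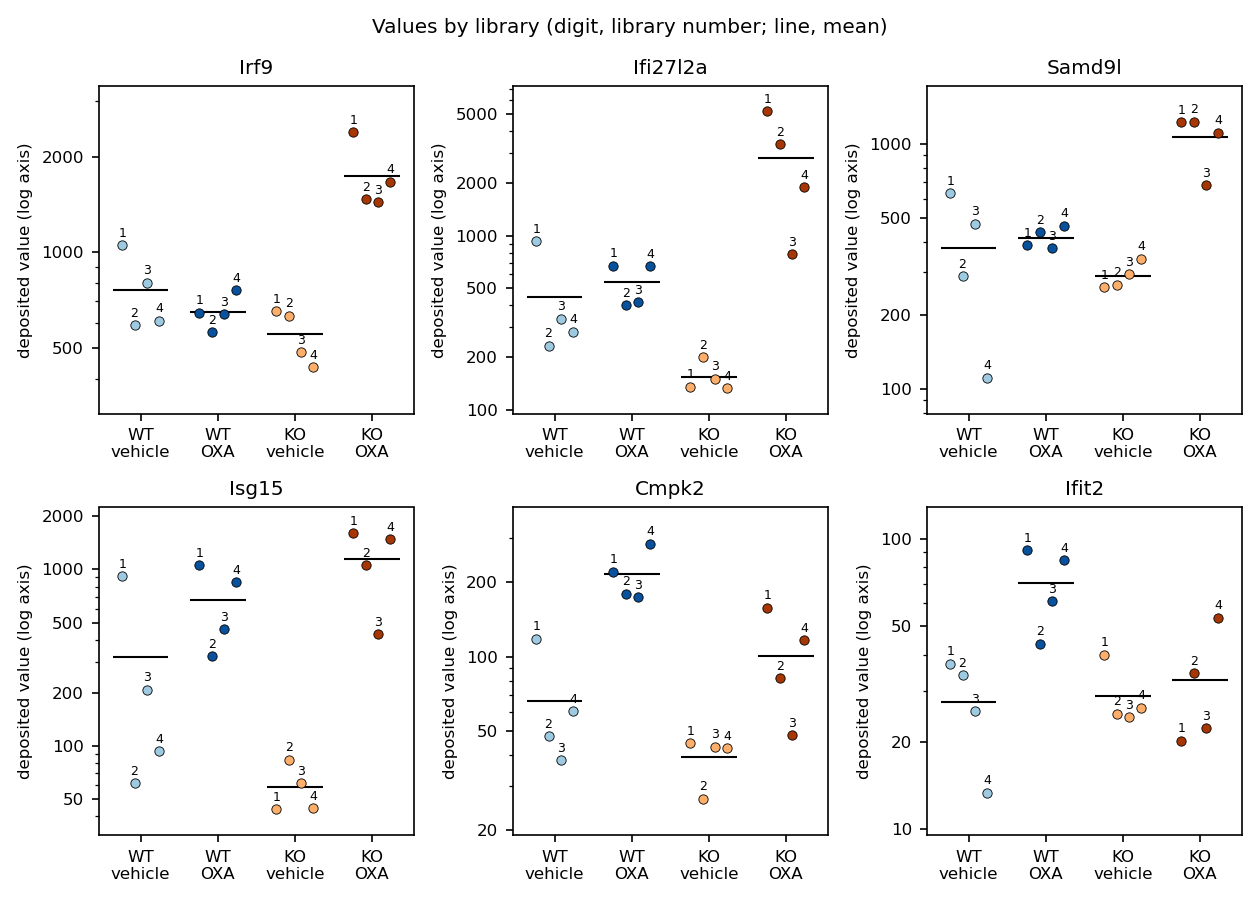
Deposited values of 6 genes in each library (points, with the library number, on log axes) and group means (lines). Irf9, Ifi27l2a and Samd9l are higher in every KO OXA library than in every WT OXA library, Cmpk2 is lower in every one, and Isg15 and Ifit2 overlap.

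Ifi27l2a, a small hydrophobic protein of the IFI27 family, had the largest difference. In WT, Ifi27l2a read 929, 233, 334 and 281 with vehicle and 673, 398, 415 and 668 with OXA, and in KO it read 135, 200.2, 151 and 133 with vehicle and 5176, 3358, 781 and 1906 with OXA. Every KO OXA library stood above every WT OXA library and every KO vehicle library, while WT OXA lay within the WT vehicle range, and WT vehicle 1 was the highest of those 8. Ifi27l2a (chr12:103442167-103443680, GRCm38, minus strand) rose by 3.88 ± 0.44 (adjusted p = 3.45e-05) in KO and stood at 0.47 ± 0.44 (adjusted p = 0.452) in WT, and the effects differed by 3.41 ± 0.63 (adjusted p = 0.00102). Without WT vehicle 1 and KO OXA 3, it passed in WT as well (0.90 ± 0.28, adjusted p = 0.0229), and the difference was 3.49 ± 0.40, adjusted p = 2.88e-05.

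Samd9l restricts poxviruses. Under vehicle Samd9l was measured at 629, 289, 474 and 111 in WT and 261, 267, 294 and 341 in KO, and under OXA at 387, 437, 375 and 464 in WT and 1232, 1234, 682 and 1115 in KO. KO OXA was above every other library of the series, and WT OXA fell within the wide range of WT vehicle. Samd9l rose in KO by 1.84 ± 0.35 (adjusted p = 0.00461), stood at 0.40 ± 0.35 (adjusted p = 0.4) in WT, and differed by 1.44 ± 0.49 (adjusted p = 0.0488). That call for the difference was lost without WT vehicle 1, 2 or 3, WT OXA 1, 2, 3 or 4, KO vehicle 1, 2, 3 or 4 or KO OXA 1, 2 or 4 (adjusted p from 0.0549 to 0.101) and under 5 of the settings that keep every library (adjusted p from 0.0503 to 0.145), and that for Ifit3, 1.33 ± 0.45 (adjusted p = 0.047), without WT vehicle 1, 2 or 3, WT OXA 2, 3 or 4, KO vehicle 1 or 3 or KO OXA 1, 2 or 4 (adjusted p from 0.052 to 0.108) and under 5 of the settings that keep every library (adjusted p from 0.0509 to 0.145). The differences of Irf9 and Ifi27l2a passed under all 29 alternatives run.

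The count of 4 changed when single libraries were left out. It was 2 without WT vehicle 1 or 3, WT OXA 2, 3 or 4, KO vehicle 1 or 3, or KO OXA 1, 2 or 4, it was 7 without KO OXA 3 and 8 without WT vehicle 4, and 1 member passed as smaller without WT vehicle 1. Without both WT vehicle 1 and KO OXA 3 it was 4 again, but with Isg15 (2.08 ± 0.57, adjusted p = 0.0226) and Xaf1 (1.19 ± 0.39, adjusted p = 0.0472) in place of Ifit3 and Samd9l. Isg15 in all libraries differed by 2.43 ± 0.85 (adjusted p = 0.0525) and Xaf1 by 1.21 ± 0.50 (adjusted p = 0.0991). With library totals set equal, which moved the median difference over all genes by -0.43, Parp9 and Ifit2 passed as smaller in KO and Irf9 and Ifi27l2a stayed larger.

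KO was next compared with WT under vehicle alone. Of the 35 members 0 were higher and 0 lower in KO by limma, where 0.0358% and 0.0239% of all genes passed. At an unadjusted p under 0.05, 0 were higher and 7 lower, and edgeR and DESeq2 each called 0 in both directions. The log2 difference was negative in 30 of the 35, with a median of -0.56 against 0.02 for all genes, and Oasl1, Bst2 and Ifi27l2a were lower in every KO library than in every WT library, a separation seen in 2.69% of all genes. The most negative differences were those of Isg15, -1.68 ± 0.60 (adjusted p = 0.441), and Ifi27l2a, -1.30 ± 0.44 (adjusted p = 0.439). Without WT vehicle 1 and KO OXA 3 the median was -0.13, and the count was again 0 in both directions. WT vehicle 1 was left out for its high member values, so a less negative median follows from the choice.

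Under OXA, 3 members were higher in KO than in WT and 2 were lower, where 14.6% and 12.9% of all genes passed, so the share in each direction was below that of all genes. Irf9 was higher by 1.40 ± 0.20 (adjusted p = 3.47e-05), Ifi27l2a by 2.11 ± 0.44 (adjusted p = 0.00137) and Samd9l by 1.32 ± 0.35 (adjusted p = 0.00737), each without overlap (14.0% of all genes). Cmpk2 was lower, -1.18 ± 0.36 (adjusted p = 0.018), without overlap (15.3% of all genes), and Ifit2 was lower with overlap, -1.13 ± 0.39 (adjusted p = 0.0347). Parp9 did not overlap either and stood at -0.77 ± 0.32 (adjusted p = 0.081). The median over the members was -0.13 and over all genes -0.05. The call for Cmpk2 was lost without WT OXA 4 or KO OXA 3 (adjusted p from 0.0624 to 0.0805) and that for Ifit2 without WT OXA 1, 3 or 4 or KO OXA 1 or 3 (adjusted p from 0.0607 to 0.107), and 0 members were lower without WT OXA 4 or KO OXA 3 and 1 without WT OXA 1 or 3. With no filter the call for Ifit2 was lost as well (adjusted p = 0.0673). The calls for Irf9, Ifi27l2a and Samd9l passed under all 30 alternatives run. With library totals set equal, 3 members were higher and 7 lower. Without WT vehicle 1, 5 members were higher. Without WT vehicle 1 and KO OXA 3 together, 7 were higher, with Ifit1, Isg15, Dhx58 and Xaf1 added (1.54 ± 0.44, adjusted p = 0.0175 for Ifit1 and 1.17 ± 0.40, adjusted p = 0.045 for Isg15), 1 was lower, and the median was 0.27. KO OXA 3 was left out for its low member values, so a higher median follows from the choice.

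Spread between libraries was wide in these genes. Over the 35 members the median coefficient of variation was 54.5% under vehicle and 25.6% under OXA in WT, and 25.7% and 47.0% in KO. Over all tested genes it was 29.7% and 18.0% in WT, and 19.6% and 29.9% in KO. The groups with the widest spread were those that held WT vehicle 1 and KO OXA 3.

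The ligands that could drive the members were then read. Of 21 interferon genes with a row, 19 were listed at 0 in all 16 libraries, among them Ifnb1, the type I interferon of most cells, every Ifna gene, the epithelial interferons Ifnk and Ifne, and the type III interferons Ifnl2 and Ifnl3. Since Irf8 and Rpl13 were listed at 0 as well, a 0 is not by itself a level. Taken as a count, 0 allows up to 3 reads in a group, which is 0.0981 RPM under vehicle and 0.0322 under OXA in WT and 0.0583 and 0.0648 in KO (counting error only). Ifnz had 5 reads in all, 1 in WT OXA and 4 in KO vehicle. Ifng, the type II interferon of T and NK cells, had 0 reads in both vehicle groups, 96 in WT OXA and 18 in KO OXA, that is 1.03 and 0.389 RPM. Against the limit of 3 reads in the vehicle group it was at least 10.5-fold higher in WT OXA and at least 6.67-fold higher in KO OXA. Its values were 5.81, 22.1, 5.49 and 12.4 in WT OXA and 7.33, 4.76, 2.48 and 6.30 in KO OXA, and limma passed it in WT (adjusted p = 0.000669) and not in KO (adjusted p = 0.0584), with no call for the difference between them (adjusted p = 0.575).

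**Figure D5:**
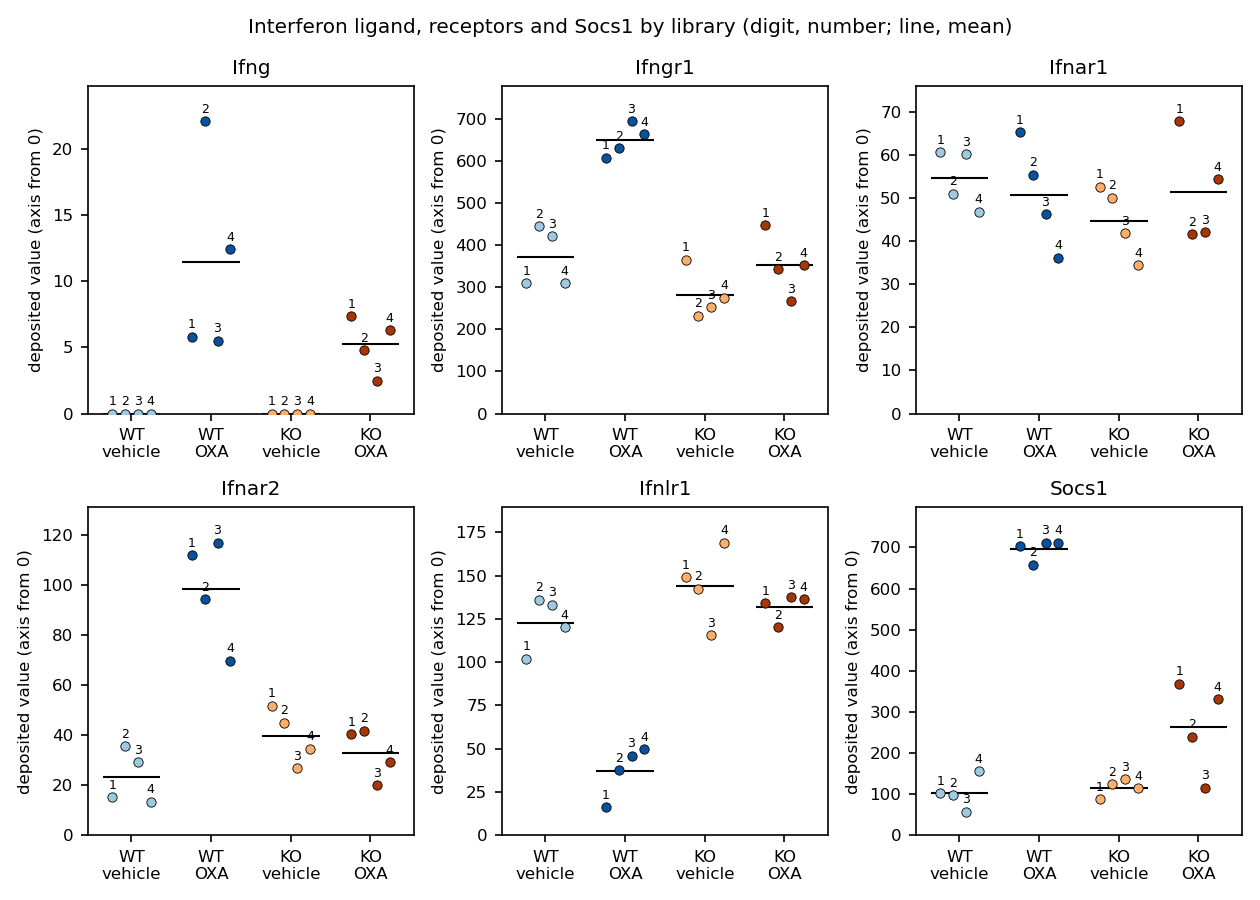
Deposited values (axes from 0) of Ifng, the receptor chains Ifngr1, Ifnar1, Ifnar2 and Ifnlr1, and the feedback inhibitor Socs1 in each library (points, with the library number), with group means (lines). Ifng is at 0 in all 8 vehicle libraries, and Ifnlr1 is lower in the 4 WT OXA libraries than in the other 12.

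Of 9 genes for interferon receptors and JAK kinases, 4 rose and 2 fell in WT, where 18.0% of all genes rose and 16% fell. The 2 that fell are near that share. In KO 0 rose and 0 fell by limma, 0 had an unadjusted p under 0.05 in either direction, and edgeR and DESeq2 called 0. Of all genes 1.81% rose and 0.0896% fell in KO, so 0 of 9 is near that share. Ifnar2, a chain of the type I receptor, went from 23.3 ± 10.8 to 98.2 ± 21.3 in WT, a rise of 2.11 ± 0.36 (adjusted p = 0.000179), and from 39.4 ± 11.1 to 32.7 ± 10.3 in KO, -0.27 ± 0.36 (adjusted p = 0.791). Its partner Ifnar1 stood at -0.13 ± 0.27 (adjusted p = 0.756) in WT and 0.19 ± 0.27 (adjusted p = 0.814) in KO. The interferon gamma receptor chains Ifngr1 and Ifngr2 rose in WT by 0.82 ± 0.18 (adjusted p = 0.00172) and 0.50 ± 0.15 (adjusted p = 0.0147) and stood at 0.32 ± 0.18 and 0.09 ± 0.15 in KO. Ifnlr1, the type III receptor chain of epithelia, fell in WT from 123 ± 15.5 to 37.3 ± 15.1, -1.80 ± 0.28 (adjusted p = 6.5e-05), with -0.11 ± 0.28 (adjusted p = 0.899) in KO, and its partner Il10rb fell in WT, -0.81 ± 0.13 (adjusted p = 0.000137). The difference between genotypes passed for Ifnar2 (-2.39 ± 0.51, adjusted p = 0.00336), Ifnlr1 (1.69 ± 0.39, adjusted p = 0.006) and Il10rb (0.85 ± 0.19, adjusted p = 0.00448). That of Il10rb did not pass with library totals set equal (adjusted p = 0.115). Jak1 and Jak2 stood at -0.09 ± 0.15 and 0.34 ± 0.17 in WT and passed in neither genotype.

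Socs1 is the feedback inhibitor of JAK kinases. Socs1 stood at 102, 97.3, 56.5 and 156 (vehicle) and 703, 658, 711 and 712 (OXA) in WT, and at 86.8, 124, 135 and 113 (vehicle) and 369, 239, 115 and 330.1 (OXA) in KO. It rose by 2.83 ± 0.31 (adjusted p = 1.23e-06) in WT, with the 4 OXA libraries far above vehicle. In KO its change was 1.08 ± 0.31 (adjusted p = 0.0856), and it differed from WT by -1.75 ± 0.43 (adjusted p = 0.00867), the reverse of Irf9 and Ifi27l2a. The other negative regulators, Socs3, Irf2, Ptpn2 and Pias1, stood between 0.29 (Socs3) and 0.40 (Ptpn2) in WT and between -0.04 (Irf2) and 0.35 (Socs3) in KO and did not pass as OXA effects in either genotype. Under OXA, Irf2 was lower in KO than in WT, with a log2 difference of -0.63, as were 12.9% of all genes. That call passed under all 30 alternatives run.

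Of 11 tested genes of the pathway that induces interferon, 3 rose and 3 fell in WT and 2 rose in KO, where 18.0% of all genes rose and 16% fell in WT, so the WT counts are near the background, and 1.81% rose in KO. Trim25, the ligase that activates RIG-I, rose by 0.66 ± 0.15 (adjusted p = 0.00165) in WT and by 0.79 ± 0.15 (adjusted p = 0.00353) in KO. Tlr3, the endosomal sensor of double-stranded RNA, rose by 1.03 ± 0.29 (adjusted p = 0.00917) in WT and by 1.20 ± 0.29 (adjusted p = 0.0302) in KO. The KO call for Tlr3 was lost without KO vehicle 1, 2 or 4 or KO OXA 2 (adjusted p from 0.0558 to 0.13) and under 4 of the settings that keep every library (adjusted p from 0.0531 to 0.112). Mavs, the mitochondrial adaptor of RIG-I, and Irf3, the factor that switches on Ifnb1, fell in WT, with -0.89 ± 0.20 (adjusted p = 0.00156) and -0.79 ± 0.18 (adjusted p = 0.00193), and stood at -0.07 ± 0.20 and 0.09 ± 0.18 in KO. The WT call for Irf3 was lost with library totals set equal (adjusted p = 0.0585). Myd88 was listed at 0 in every library.

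Other interferon-stimulated genes were taken from a list of 47, of which 44 were tested. In WT 28 rose and 1 fell (Isg20), and in KO 20 rose (18.0%, 16% and 1.81% of all genes). Their median log2 fold changes were 1.32 in WT and 1.42 in KO. Samhd1, which depletes the nucleotides that retroviruses need, rose by 3.27 ± 0.24 (adjusted p = 6.14e-09) in WT and 1.93 ± 0.24 (adjusted p = 8.34e-05) in KO, and Nlrc5, the transactivator of MHC class I, by 3.27 ± 0.42 (adjusted p = 8.76e-06) and 4.06 ± 0.42 (adjusted p = 1.2e-05). Without WT vehicle 1 the WT value of Nlrc5 was 3.86. Slfn2, a Schlafen protein of lymphocytes, rose by 3.45 ± 0.43 and 3.84 ± 0.43, Epsti1 by 2.84 ± 0.28 and 2.001 ± 0.28, Parp12 by 1.15 ± 0.24 and 1.97 ± 0.24, and the DNA sensor gene Ifi204 by 3.65 ± 0.42 and 2.24 ± 0.42, in WT and KO in that order. Apobec3, a cytidine deaminase that restricts retroviruses, rose by 2.32 ± 0.25 (adjusted p = 1.08e-06) in WT and stood at 0.22 ± 0.25 (adjusted p = 0.753) in KO, a difference of -2.10 ± 0.35 (adjusted p = 0.00047). Under OXA, 3 of the 44 were higher in KO than in WT and 13 were lower, the 35 members split 3 and 2, and of all genes 14.6% were higher and 12.9% lower. Whether the lists differ in this was not tested.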

How the data were processed

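RNA of 16 esophagus libraries (4 groups of 4) was measured by CEL-Seq on a NextSeq550, per the labels' protocols. The submitters' processing notes name FastQC 0.11.5, Trim Galore, cutadapt 1.10, TopHat2 2.1.0, Bowtie2 2.2.6, HTSeq 0.6.1, DESeq2 1.28.0 and GRCm38. Annotation release, strand setting and handling of molecular identifiers are not given in the sources used here. As deposited, each value is a signal: a gene's count, which the authors scaled by a single size factor for each library. With a tolerance of 0.1 read, 100% of the values in every library were whole multiples of 1 step, so whole reads, and with them depth, were recovered from these deposited values. Of 41411 identifiers, 14402 were at 0 everywhere, and 41383 were in GENCODE M21, of which 40518 (97.9%) had the same coordinates.

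Tests used limma 3.58.1 (R 4.3.3) on log2(value + 1), with 4 group means over all 16 libraries and eBayes with a trend. They were two-sided, with Benjamini-Hochberg adjustment over the 16748 genes with 5 or more in 4 or more libraries, and a threshold of 0.05. Since 1 was added before taking logs, fold changes of low genes come out too small. On simulated counts of 16411 genes in the WT comparison, 57 of 100 genes changed 2-fold and 95 of 100 changed 4-fold were called, together with 8 unchanged genes. The changed genes were drawn only from genes with a mean value above the level of the filter, so these shares do not cover the lowest genes tested.

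Alternatives were pseudocounts of 0.5 and 5, no filter, a filter of 20, quantile normalization, equal library totals, no trend, a fit to the groups compared, robust eBayes, array weights, reads thinned to 5.61 M, each library left out, and, on recovered reads, DESeq2 1.42.0 and edgeR 4.0.16 (TMM, quasi-likelihood). The members, the pathway and marker lists and the rule for named genes were chosen with earlier results of these data known. The rule gave values in every library for 23 tested members on a list and for others among the 4 smallest or 2 largest p-values of a comparison. From each pathway list it took up to 4 genes with the smallest p in either OXA comparison, and some receptor and ligand genes always. Isg20, Ifnz, Myd88 and the Gm20388 region were named after their values were seen. Library numbers follow accession order and pair nothing. Genes of the pathway and marker lists that are not reported here were left out of their lists.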

Additional observations from a re-analysis of the deposited data

Results flagged for a closer look

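A library was far from the other 3 of its group (a gap over range above Dixon's 95% critical value) in 9 of 140 pairs of member and group, where chance gives about 1 in 20. WT vehicle 1 was the high library in 4 of them. It held 337.34 for Oas2 (others 47.9 to 69.33), 212.04 for Oas3 (16.42 to 33.43), 917.01 for Isg15 (61.81 to 207.98) and 929.4 for Ifi27l2a (233.34 to 333.86). KO vehicle 1 was high for Oas3 at 25.34 (15.22 to 16.41) and for Ifit2 at 39.96 (24.35 to 26.26), and low for Dhx58 at 5.85 (23.59 to 25.03). KO vehicle 4 was low for Ifih1 at 70.58 (91.31 to 93.2), and KO vehicle 2 for Cmpk2 at 26.75 (42.67 to 44.84).

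The OXA effect differed between the genotypes by the interaction test in 4 members, with a KO effect minus WT effect of 1.3301 for Ifit3, 1.8435 for Irf9, 1.4359 for Samd9l and 3.4106 for Ifi27l2a on the log2 scale.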

How the results depend on the processing

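The members' counts of 31 higher in WT and 30 in KO stayed within 1.5 times under every alternative run, from 25 to 32 in WT and from 23 to 32 in KO with 1 library left out, and 0 were lower. Of the calls, 24 of 31 in WT, 23 of 30 in KO, 2 of 4 for the interaction and 3 of 5 for KO against WT under OXA passed under every alternative, and no called value changed sign. The count of 4 larger in KO was 2 with no filter, with equal library totals and with no trend, 7 with array weights, 8 with edgeR, 9 with DESeq2, and 2 to 8 with 1 library left out. The 0 smaller in KO became 2 with equal totals and ranged from 0 to 1 with 1 library left out. Under OXA, the 3 higher in KO became 5 in a fit to the groups compared and with DESeq2, 7 with both WT vehicle 1 and KO OXA 3 left out, and 3 to 5 with 1 left out. The 2 lower became 1 with no filter, 7 with equal totals, 4 with array weights, 1 with both left out, and 0 to 3 with 1 left out. The cause was not tested. KO against WT under vehicle stayed at 0 in both directions.

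Equal library totals shifted the median over all genes, in log2, by 0.31 in WT, -0.12 in KO, -0.43 for the interaction and -0.40 for KO against WT under OXA. The share of calls that were higher went from 53.0% to 77.4% in WT, from 56.9% to 20.3% for the interaction, from 53.1% to 19.9% for KO against WT under OXA and from 60.0% to 80.0% under vehicle. Relative to the median of all genes, 34 members lay above in WT and 35 in KO under both scalings, and 24 for the interaction. No paired analysis was possible because the library numbers follow accession order and pair no samples. A fit to the groups compared is the same as the reported fit for the interaction and was not run again. With reads thinned to 5.61 M, members' calls were lost for Usp18 in WT, for Oas1g, Usp18 and Trim30a in KO and for Ifit3 in the interaction. Depth limits the interferon ligands to the bounds given for a count of 0, and Irf8 and Mx2 gave no value.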
